A study of Mus musculus with 13 samples.

Results

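The quadriceps muscles of the 2 control groups of the study, labelled Wt and C, were compared with each other. The comparison took every array with either label, 3 Wt and 3 C, which are 6 of the 13 arrays in the study, and each array held the RNA of 1 animal. Neither label names a manipulation, so the comparison shows how far the control mice of the study differed from each other in muscle gene expression.

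All mice were C57Bl/6 males aged 4 months on standard chow, and their quadriceps was frozen in liquid nitrogen. The labels do not expand C, Wt, SKM-KO or SKM-Tg. The study as a whole examined ablation and gain of function of DOR, an earlier name of Trp53inp2, and the 3 SKM-KO and 4 SKM-Tg arrays were taken as those manipulations. SKM-KO mice were paired with C and SKM-Tg mice with Wt, because the animal numbers of C and SKM-KO interleave, those of Wt and SKM-Tg interleave, and the sample descriptions mark Wt with a minus and SKM-Tg with a plus sign. Whether the C mice carry a targeted but intact allele or a Cre, which promoter drives the transgene, and which C57BL/6 substrain each line was kept on are not given in the sources used here. Line, cohort, allele and day of collection can therefore not be told apart in Wt against C.

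Trp53inp2 encodes a protein needed for autophagosomes to form, which in the nucleus binds and assists hormone receptors such as that of thyroid hormone. Conditional knockout mice and transgenic mice are usually made and bred separately, and each line is compared with its own littermates. Inbred C57BL/6 mice exist as substrains that differ at known genes. The best known is Nnt, the mitochondrial transhydrogenase, which is deleted in part in the C57BL/6J substrain, and Cyfip2 carries a variant in the C57BL/6N substrain. Skeletal muscle expression also follows feeding, glucocorticoids and time of day, which makes it sensitive to when and how a cohort was sampled.

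The values were log2 signals, so a difference of 1 is a 2-fold change. Differences come from a limma fit with 1 mean per group over all 13 arrays, are given with the standard error (SE) of that fit, and are called where the Benjamini-Hochberg adjusted p over the 10411 genes tested is under 0.05. Array numbers such as Wt 2 are names without an order.

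The labelled tissue was checked against its markers. All 13 measured genes of the fast fibre sarcomere list were expressed above the filter, and their median level lay between 12.33 and 12.47 in the C arrays and between 12.33 and 12.46 in the Wt arrays. Of the 11 measured lymphocyte and neutrophil markers only 3 passed the filter, and of the 8 measured satellite cell markers 4 did.

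One control array stood furthest apart, and a second departed from C in a similar pattern. Wt 2 lay more than 2-fold from the C mean at 1564 of the 10411 genes (15%), 700 above and 864 below. Wt 1 did so at 148 genes and Wt 3 at 15, while the C arrays themselves did so at 3 to 9. The correlation of Wt 2 with the C arrays was 0.912 to 0.914, below the 0.973 to 0.976 of Wt 1 and the 0.989 to 0.993 of Wt 3. The signal of control probes that match no mouse transcript and have a GC count over 12 was 5.35 in Wt 2, 4.47 in Wt 1 and 4.21 in Wt 3, against 4.01 to 4.25 in C. The median gene SD was 0.10 in C and 0.25 in Wt, so the Wt group was the more variable. Across genes, the deviations from the C mean correlated at r = 0.88 between Wt 1 and Wt 2. The value was 0.27 between Wt 1 and Wt 3 and 0.17 between Wt 2 and Wt 3. What set Wt 2 apart was not tested, and results are given with and without it. Leaving out Wt 2 keeps Wt 1, which shares much of its pattern.

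**Figure D1:**
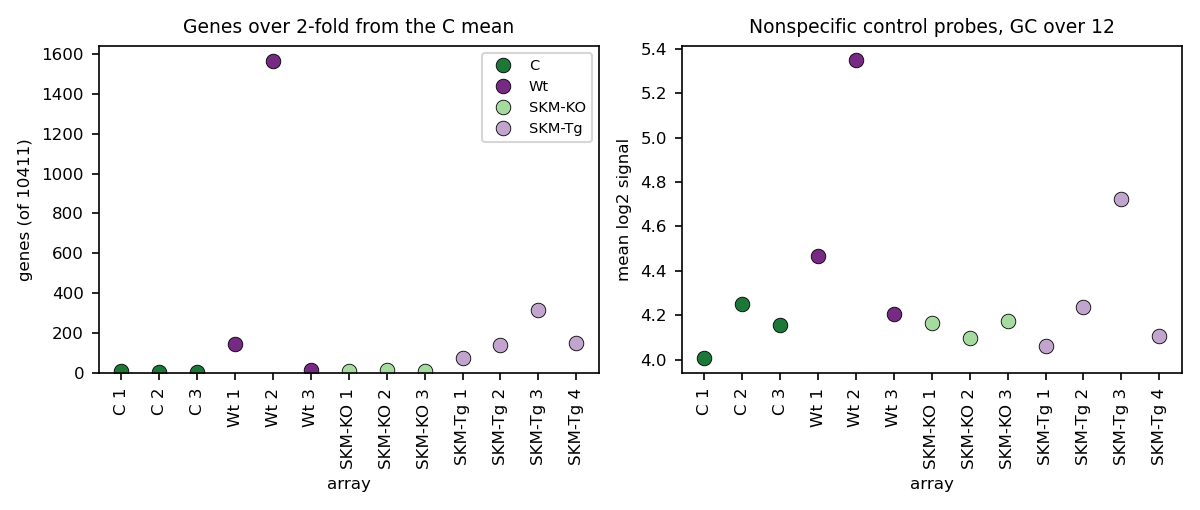
Left, number of the 10411 tested genes more than 2-fold from the mean of the C arrays, for each of the 13 arrays. Right, mean log2 signal of nonspecific control probes with a GC count over 12; each point is 1 array, coloured by group. Wt 2 is highest in both panels, at 1564 genes and a signal of 5.35, and Wt 3 lies close to the C arrays, at 15 genes and 4.21.

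Between Wt and C, 1 gene passed the threshold. Rab4a, a small GTPase of early endosome recycling that takes part in the traffic of the glucose transporter of muscle and fat, was higher in Wt; it was the 1 gene called of 10411 (0.00961%), and 0 genes were called lower. At an unadjusted p under 0.05, limma gave 1683 genes higher (16.2%) and 1208 lower (11.6%) in Wt. Without Wt 2 no gene was called and 976 genes (9.37%) had an unadjusted p under 0.05. Fitted on the 6 Wt and C arrays alone, again no gene was called, and 1391 (13.4%) were at an unadjusted p under 0.05. Without Wt 3 the count of calls was 4119, of which 2373 were higher, and without C 1, C 2, C 3 or Wt 1 it was 0, with 1756 to 2120 genes at an unadjusted p under 0.05. From the 25th to the 75th percentile the differences ran from -0.16 to 0.27, with a median of 0.06, and without Wt 2 from -0.10 to 0.15, with a median of 0.03.

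Rab4a read 8.41, 8.38 and 8.31 in the C arrays and 9.40, 9.70 and 9.18 in the Wt arrays. Every Wt array lay above every C array, Wt 2 and Wt 3 included. The difference was 1.06 (SE 0.14, limma adjusted p 0.0460), a 2.08-fold higher signal in Wt, with a 95% interval of 0.76 to 1.36. Without Wt 2 it was 0.92 (adjusted p 0.0930), and in the fit on the 6 arrays alone the adjusted p was 0.345. Over 15 alternative settings the difference ranged from 0.92 to 1.18 and its adjusted p from 0.00181 to 0.762, with 5 settings past the threshold. A second probe set of Rab4a gave 7.27, 7.21 and 7.20 in C against 8.38, 8.53 and 8.02 in Wt, a difference of 1.09 (SE 0.14). In the manipulated mice Rab4a read 8.87, 8.66 and 8.52 in SKM-KO and 9.18, 9.24, 9.40 and 9.11 in SKM-Tg, so the Wt and SKM-Tg arrays all lay above the C and SKM-KO arrays.

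When probe sets were tested one by one, a second gene was called beside Rab4a. Wdfy1 encodes an endosomal adaptor with a FYVE domain. Of 22519 probe sets 4 were called (0.0178%), 2 of Rab4a and 2 of Wdfy1, and the Wdfy1 probe sets were not the brightest of their gene. One of them read 5.60, 5.85 and 6.05 in C and 7.59, 7.22 and 7.69 in Wt, a difference of 1.67 (SE 0.16, adjusted p over all probe sets 0.00354). The other read 5.51, 5.84 and 5.83 in C and 7.39, 6.80 and 7.54 in Wt, a difference of 1.52 (adjusted p 0.0113). Without Wt 2 both remained the only probe sets called (0.00888%), at 1.81 and 1.74. The brightest Wdfy1 probe set differed by 0.27 and its groups overlapped, so the probe sets of Wdfy1 disagreed in size.

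The low group for Wdfy1 was C alone. The first of these probe sets averaged 5.83 ± 0.22 (SD, n = 3) in C, 7.15 ± 0.19 (SD, n = 3) in SKM-KO, 7.50 ± 0.25 (SD, n = 3) in Wt and 7.49 ± 0.16 (SD, n = 4) in SKM-Tg. SKM-KO thus lay near Wt and SKM-Tg rather than near C, its presumed control. This pattern differs from that of Rab4a, where SKM-KO lay nearer to C.

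Nnt varied inside the C group. Its brightest probe set read 9.03, 10.46 and 10.29 in C and 10.44, 10.40 and 10.94 in Wt. The second read 7.87, 9.47 and 9.30 in C and 9.42, 9.36 and 9.92 in Wt. In both probe sets C 1 lay more than 1 log2 unit below every other array of the 4 groups, C 2 lay among the Wt values, and C 3 lay just below the lowest Wt array. The difference between groups was 0.67 (SE 0.29, adjusted p 0.169) and did not pass.

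**Figure D2:**
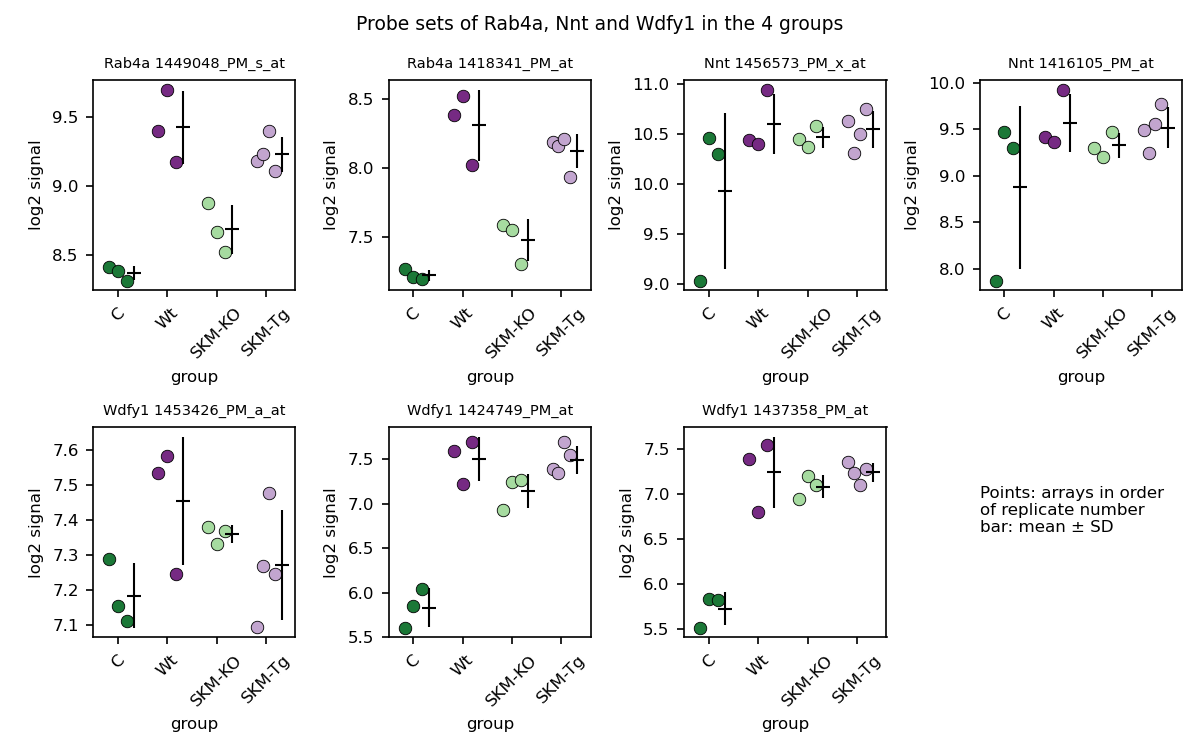
Log2 signal of 7 probe sets of Rab4a, Nnt and Wdfy1 in the 4 groups; each point is 1 array and each bar the mean ± SD. Both Rab4a probe sets are higher in Wt and SKM-Tg than in C and SKM-KO, 2 of the 3 Wdfy1 probe sets are low in C alone, and 1 C array is low in both Nnt probe sets.

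The other genes of a list of candidates for a difference in strain background were tested in the same way. Of its 12 measured members 8 were expressed above the filter, and 7 had a positive difference with a median of 0.24, against 0.06 over all genes tested; without Wt 2 the median was 0.15. Rab4a and Wdfy1 stood on the list with their differences already known, so the list does not bear on them. Both are counted in these values, at 1.06 and 0.27, and both add to the positive side. The list therefore cannot show a departure from all genes. Entpd4, a nucleotide hydrolase of the Golgi and lysosome, read 9.12, 9.20 and 9.05 in C and 8.73, 8.94 and 8.46 in Wt, with no overlap (difference -0.41, SE 0.16, adjusted p 0.151). Rptor, a subunit of the mTORC1 kinase complex, differed by 0.58 (adjusted p 0.145), with Wt 3 at 7.63 inside the range of C. Cyfip2 differed by 0.21, Snap29 by 0.07 and Ide, an insulin-degrading protease, by 0.04, all with overlapping groups.

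Trp53inp2 itself did not separate the control groups. It read 11.06, 11.19 and 11.15 in C and 11.20, 11.46 and 11 in Wt, and the groups overlapped. The difference was 0.09 (SE 0.14, adjusted p 0.670, 95% interval -0.20 to 0.38), and it turned to -0.03 without Wt 2. Its paralogue Trp53inp1, a stress-induced regulator of autophagy, read 7.29, 7.48 and 8.28 in C and 7.33, 6.37 and 7.98 in Wt, a difference of -0.45 (SE 0.44, adjusted p 0.491). Without Wt 2 the Trp53inp1 difference was -0.02, and a second probe set of Trp53inp1 had the other sign, at 0.17. The labelled ablation was seen in the same probe set of Trp53inp2, at 8.58, 8.79 and 8.99 in SKM-KO, while SKM-Tg read 11.11, 11.03, 11.28 and 11.24. The SKM-Tg mean was 11.165 against 11.22 in Wt, so no gain was seen in this probe set. Whether the probe set reads the transgene was not tested.

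A gene that has been targeted can carry linked sequence from the cells in which it was made, so the genes around Trp53inp2 on chromosome 2 were described. Of the 25 tested genes on each side, 50 in all, 0 were called in limma, 13 (26%) had an unadjusted p under 0.05 and the median difference was 0.08. Over all genes 27.8% had such a p and the median was 0.06. Over the autosomes and the X chromosome that share ran from 21.7% on chromosome 12 to 32.7% on the X chromosome.

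The 24 genes with the smallest p-values in either direction describe the difference further. Only Rab4a among them passed; the adjusted p of the other 23 was 0.144, so their values are given without a call. In all 24 the Wt and C arrays did not overlap, as they did not for 2493 of all genes (23.9%), of which 1607 (15.4%) had Wt above and 886 (8.51%) had Wt below. The 24 were picked by p in a fit that includes these arrays, so their lack of overlap follows largely from that choice.

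On the higher side, beside Rab4a, the named genes differed in function. Dusp7, a phosphatase that inactivates ERK kinases, read 7.52, 7.55 and 7.56 in C and 8.46, 8.93 and 8.23 in Wt (difference 1.0, SE 0.18). Fzd4, a receptor for Wnt ligands and norrin, read 8.44, 8.23 and 8.37 in C and 9.04, 8.82 and 9.03 in Wt (difference 0.62, SE 0.11), and Wt 2 was its lowest Wt array. Riox1, a nucleolar oxygenase, differed by 1.05, Midn, which carries nuclear proteins to the proteasome, by 0.78, Fxr2, an RNA-binding relative of the fragile X protein, by 0.75, and Maml1, a coactivator of Notch, by 0.68. Repin1, a zinc finger protein, differed by 0.85, Aebp1, an extracellular matrix protein, by 0.70, and Ehhadh, an enzyme of peroxisomal fatty acid oxidation, by 0.93.

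Both partners of a glucose-sensing transcription factor were among these 12. Mlxip, also called MondoA, pairs with Mlx, and the pair binds E-boxes in genes such as Txnip and Arrdc4 when hexose phosphates accumulate. Mlxip read 9.18, 9.18 and 9.41 in C and 9.79, 9.79 and 9.67 in Wt (difference 0.49, SE 0.09). Mlx read 6.48, 6.41 and 6.57 in C and 7.20, 7.44 and 6.93 in Wt (difference 0.70, SE 0.13). Txnip and Arrdc4, which were looked up after the values of Mlxip and Mlx had been seen, differed by 0.20 (SE 0.11, adjusted p 0.218) and 0.08 (SE 0.13, adjusted p 0.687), and both overlapped between the groups.

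On the lower side the 12 genes were likewise of different functions. Lmod3, which nucleates actin in thin filaments of the sarcomere, read 8.62, 8.88 and 8.59 in C and 7.97, 7.74 and 7.97 in Wt (difference -0.80, SE 0.15). Ppm1k, the phosphatase that activates breakdown of branched-chain keto acids, read 6.13, 6.26 and 6.09 in C and 4.88, 4.52 and 5.66 in Wt (difference -1.14, SE 0.25). Fundc1, a receptor for mitophagy in the outer mitochondrial membrane, differed by -0.63, and Dach2, a transcriptional corepressor that responds to innervation, by -0.94. Pm20d2, a dipeptidase, differed by -0.91, Mark1, a kinase of microtubule-associated proteins, by -0.85, Rell1, a membrane protein of the RELT family, by -0.94, Gnal, a G protein alpha subunit, by -0.68, and Dnajc9, a histone co-chaperone, by -0.43.

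Members of 3 kinds are less certain as single genes. Pisd-ps3 is listed as a pseudogene of phosphatidylserine decarboxylase, and its probes may also read related copies; it was 7.34, 7.12 and 7.62 in C and 6.57, 6.54 and 6.49 in Wt (difference -0.83, SE 0.17). Ifi203 belongs to a cluster of similar interferon-inducible genes and differed by -1.20 (SE 0.26). Atcayos is an antisense transcript of Atcay and differed by -0.75, but its probe sets disagreed in sign. Of the 12 genes of the 24 with several expressed probe sets, the other 11 had all of them on the same side. This counts signs and not sizes. The 4 expressed Mark1 probe sets ran from -0.85 to -0.004, and the second Mlx probe set differed by 0.37 with overlapping groups.

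The same difference was then read in animals that are in neither control group. SKM-Tg minus SKM-KO compares the presumed lines in 7 other arrays, although the manipulations differ there too. In that comparison 18 genes were called (0.173%), 8 higher (0.0768%) and 10 lower (0.0961%). All 24 genes above had the same sign there as in Wt minus C, as did 2703 of the 2891 genes with an unadjusted p under 0.05 in Wt minus C (93.5%), 2201 of the 2493 genes without overlap (88.3%) and 7993 of all 10411 genes (76.8%). Dusp7 read 7.96, 7.56 and 7.42 in SKM-KO and 8.90, 8.70, 8.98 and 8.64 in SKM-Tg, a difference of 1.16 (SE 0.17, adjusted p 0.0164). Fzd4 differed by 0.60 (adjusted p 0.0425) and Pisd-ps3 by -1.13 (adjusted p 0.0157), and these 3 passed in SKM-Tg minus SKM-KO. Rab4a differed by 0.55 (SE 0.13, adjusted p 0.108), Lmod3 by -0.76 (adjusted p 0.0520) and Ifi203 by -1.39 (adjusted p 0.0512), and these 3 did not.

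Read in the other direction, the 17 genes called in SKM-Tg minus SKM-KO besides Trp53inp2 all had the same sign in Wt minus C, and 16 of 17 did without Wt 2. The exception, Trp53bp1, a DNA repair protein, was -0.54 in SKM-Tg minus SKM-KO and -0.02 in Wt minus C, and 0.03 without Wt 2. The 17 include Mybph, a myosin-binding protein, at 2.55 in SKM-Tg minus SKM-KO and 1.26 in Wt minus C, Il15, a muscle cytokine, at -1.19 and -0.55, and Slc25a37, the mitochondrial iron importer, at -0.64 and -0.41. Mybph read 7.39, 6.31 and 6.23 in C and 7.83, 8.47 and 7.42 in Wt. H3c11, a histone gene, was among them at 1.0 in SKM-Tg minus SKM-KO but only 0.09 in Wt minus C. The limma test of the difference between the comparisons called 2 genes (0.0192%), Trp53inp2 at -2.29 (adjusted p 2.16e-04) and H3c11 at -0.91 (adjusted p 0.0401). Trp53inp2 is the gene ablated in SKM-KO, so its call follows from the design.

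Across the 10411 genes the 2 comparisons, which have no array in common, correlated with r = 0.77. This is a description across genes, which are not independent of each other. Without Wt 2 the value was 0.69, and without Wt 2 and SKM-Tg 3 it was 0.61. Taken alone against the C mean, Wt 1 gave 0.75, Wt 2 gave 0.75 and Wt 3 gave 0.21. SKM-Tg 3 had, after Wt 2, the next highest signal of the nonspecific probes with a GC count over 12, at 4.72, and the part of that signal in the correlation was not tested.

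**Figure D3:**
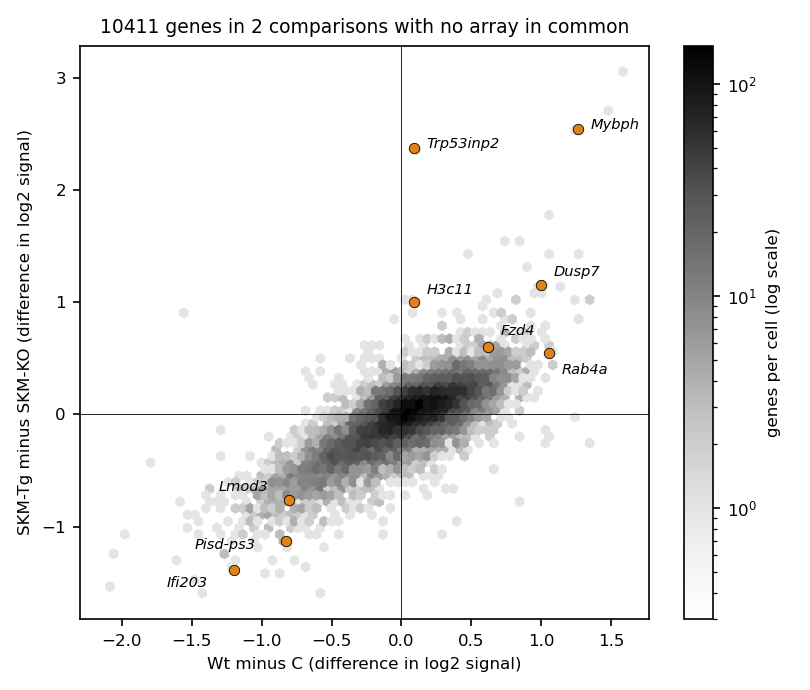
Difference in log2 signal of Wt minus C (x axis) against SKM-Tg minus SKM-KO (y axis) for 10411 genes; shading counts genes per cell on a log scale, and orange points are named genes. Most named genes lie along the diagonal, such as Dusp7 at 1.0 and 1.16, while Trp53inp2 lies at 0.09 and 2.38 and H3c11 at 0.09 and 1.0.

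Averaged over both pairs, Wt and SKM-Tg against C and SKM-KO, 1756 genes were called (16.9%), 795 higher (7.64%) and 961 lower (9.23%). All 24 genes were among them; they had been picked on Wt minus C, which is part of this average. The average difference was 1.08 (SE 0.12) for Dusp7, 0.80 (SE 0.09) for Rab4a, 0.61 (SE 0.08) for Fzd4, -0.98 (SE 0.12) for Pisd-ps3 and -0.78 (SE 0.10) for Lmod3, each with an adjusted p of 0.00509 or less. The count moved between 15 and 4756 when single arrays were left out, 15 without SKM-KO 2 and 4756 without Wt 3.

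**Figure D4:**
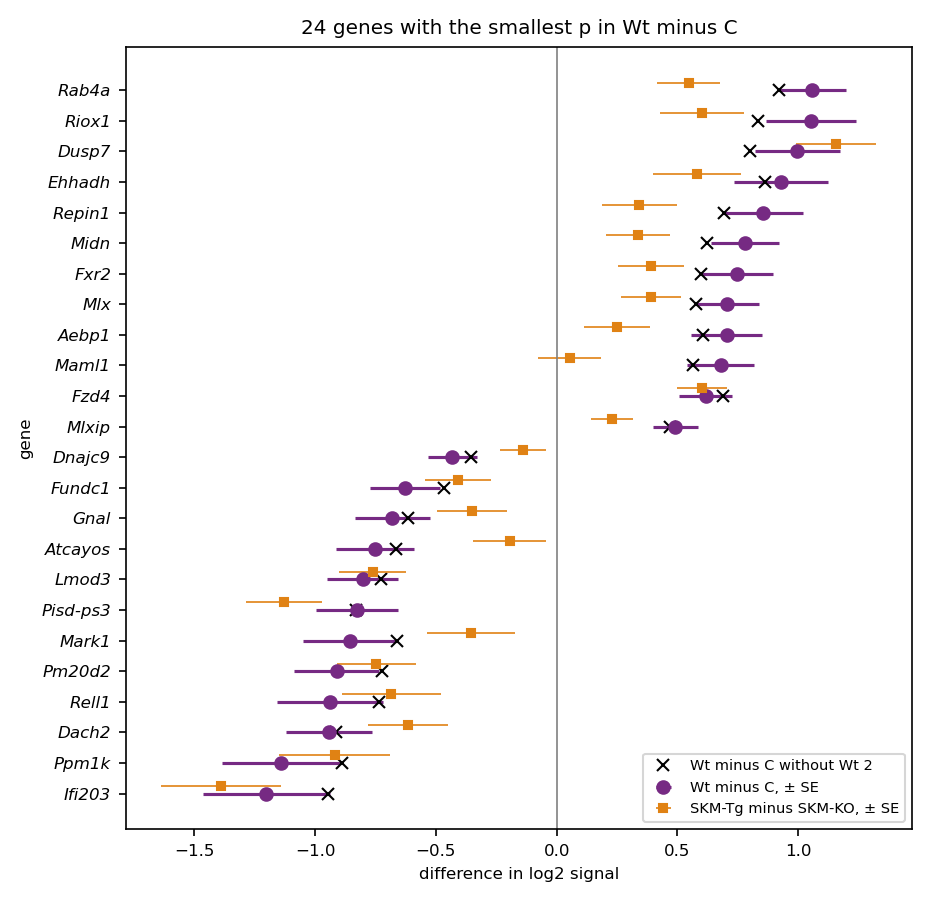
The 24 genes with the smallest p in Wt minus C: difference in log2 signal ± SE (circles), the same without Wt 2 (crosses) and SKM-Tg minus SKM-KO ± SE (squares). All squares lie on the same side of 0 as the circles; Rab4a, at 1.06, is the gene that passed.

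Gene lists were described by their counts and medians. The value to read them against is that of all genes tested: 58.8% had a positive difference, the median was 0.06, and 27.8% had an unadjusted p under 0.05. In whole muscle fewer cells of a type and less RNA per cell cannot be told apart.

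Glucocorticoid-responsive genes had the highest list median. Of 17 tested, 16 had a positive difference with a median of 0.52, and without Wt 2 these were 16 and 0.33; each Wt array alone had a positive median, with 0.36 in Wt 1, 0.79 in Wt 2 and 0.32 in Wt 3. No member was called, and 7 had an unadjusted p under 0.05. Cdkn1a, a cell cycle inhibitor also induced by p53, read 10.09, 10.81 and 10.87 in C and 11.31, 11.55 and 11.36 in Wt (difference 0.81, SE 0.19). Cebpb, a transcription factor, read 8.72, 8.97 and 9.17 in C and 9.48, 9.88 and 9.33 in Wt, and Mt1, a metallothionein, read 9.41, 10.39 and 10.68 in C and 11.15, 11.56 and 10.93 in Wt. In these genes the Wt arrays all lay above the C arrays, as in 5 of the 17 and in 15.4% of all genes. C 1 was the lowest C array in each of the 3. In SKM-Tg minus SKM-KO the list median was 0.20.

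Clock genes did not share a direction. Of 17 tested, 11 had a positive difference with a median of 0.16, which was 0.02 without Wt 2. Per1, a repressor of the clock that glucocorticoids also induce, read 8.02, 8.05 and 8.13 in C and 8.70, 9.51 and 8.38 in Wt (difference 0.80, SE 0.24, adjusted p 0.145), and Cry2, its partner in repression, differed by 0.43. Npas2, an activator, differed by 0.32, and Nr1d2, a heme-binding repressor, by -0.34. The groups did not overlap in these 4 genes, 3 with Wt higher and 1 with Wt lower, and in no other of the 17. Over all genes tested 23.9% did not overlap, so the list lay near that share.

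The clock activators and the MondoA pair both bind E-boxes, and the motif CACGTG, which reads the same on both strands, was searched in promoters from 250 bases before to 50 bases after the gene start in RefSeq (build GRCm38.p6). It was present in 4 of the 15 tested clock genes with an entry (26.7%), in 12.0% of the 8405 tested genes with an entry and in 8.09% of all 27025 genes of the promoter table. Windows of 30 bases are shown for Per1, the clock gene with the smallest p, for Ciart, a clock repressor with several matches, and for Arrdc4, the target of the MondoA pair named above; they read 5′ to 3′ on the strand of the gene, with the E-box in capitals. They lie at chr11:69098771-69098800, chr3:95882327-95882356 and chr7:68749414-68749443. A match describes the letters and shows no binding.
Per1: agcacccaagtcCACGTGcagggatgtgtg
Ciart: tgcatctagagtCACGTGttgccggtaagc
Arrdc4: aaaggtcctgtgCACGTGcactatggtgtc
The difference was 0.80 for Per1, 0.25 for Ciart and 0.08 for Arrdc4, and the groups overlapped for Ciart and Arrdc4.

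Genes of glucose uptake and insulin signalling were split in direction. Of 19 tested, 10 had a positive difference with a median of 0.07, and 11 (57.9%) had an unadjusted p under 0.05, which 2 had without Wt 2. Slc2a1, the basal glucose transporter, differed by 0.71, Akt2, the kinase that relays insulin to glucose uptake, by 0.36, and Pik3ca, the catalytic subunit of PI 3-kinase, by -0.84. Pik3ca read 9.25, 9.54 and 9.39 in C and 8.53, 7.71 and 9.44 in Wt, so Wt 3 lay among the C arrays. None was called.

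In the autophagy list, the process in which Trp53inp2 acts, 18 of 27 genes had a positive difference with a median of 0.13 (0.08 without Wt 2), and 0 were called with 11 at an unadjusted p under 0.05. Atg9a, a membrane protein of the growing autophagosome, read 8.63, 8.64 and 8.60 in C and 9.28, 9.93 and 8.84 in Wt, and Ulk1, the initiating kinase, differed by 0.48. Atg10, an enzyme of the ATG12 conjugation system, differed by -1.15 with overlap. In the lysosome list 16 of 22 were positive with a median of 0.14. Npc1, the cholesterol exporter of the lysosome, read 9.61, 9.36 and 9.89 in C and 10.39, 10.35 and 10.18 in Wt (difference 0.68), and Gaa, the acid glucosidase, differed by 0.63, whereas Atp6v1a, a subunit of the proton pump, differed by -0.76.

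Nuclear receptors and their coactivators, through which DOR acts outside autophagy, had a median of 0.31 over 21 genes, 17 of them positive. Without Wt 2 the median was 0.09. Ppargc1b, a coactivator of mitochondrial genes, read 7.09, 7.30 and 6.80 in C and 7.60, 7.73 and 7.87 in Wt (difference 0.67), and did so with Wt 3 highest. Ppard, a fatty acid receptor, differed by 0.73 and Rxra, its partner, by 0.55.

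Among the fibre type and energy lists the slow fibre list had the lowest median. The fast fibre sarcomere list had a median of 0.06 and the respiratory chain list, with 29 genes, -0.01, and 0 and 2 of their members had an unadjusted p under 0.05. The slow fibre sarcomere list had 10 of 13 genes with a negative difference and a median of -0.17, with 0 at such a p. Myh7, the slow myosin heavy chain, read 10.72, 11.97 and 11.72 in C and 11.18, 11.23 and 11.18 in Wt, so C 1 lay below and the other C arrays above the Wt arrays, and Tpm3, the slow tropomyosin, read 11.30, 12.26 and 12.03 in C and 11.43, 11.36 and 11.73 in Wt. Fatty acid genes were divided 13 to 13, with Angptl4, an inhibitor of lipoprotein lipase, at 0.94 and Mlycd, which removes malonyl-CoA, at 0.61, against Acadm, the medium-chain dehydrogenase, at -0.60.

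Of the 11 marker lists of other sources, 7 had a median of at least 0.09 against 0.06 for all genes, and each of these was highest in Wt 2, as was the median of all genes. The fat cell list had a median of 0.45 over 9 genes, 7 of them positive, and 1.29 in Wt 2, 0.31 in Wt 1 and -0.09 in Wt 3; without Wt 2 it was 0.11. Adipoq, which encodes adiponectin, read 5.56, 4.80 and 5.34 in C and 6.31, 8.75 and 5.12 in Wt. The macrophage list had a median of 0.29 over 13 genes, 10 of them positive, and of -0.16 in Wt 3. Cd68, a lysosomal protein of phagocytes, was at 0.87 and Cd163, the haemoglobin scavenger receptor, at -1.07. These were its only members without overlap, against 23.9% of all genes. The satellite cell list had a median of 0.39 with 4 of 4 positive. For the nerve and Schwann cell list it was 0.34 with 6 of 6, and for the erythrocyte list 0.31 with 4 of 6. Without Wt 2 these medians were 0.14, 0.14 and 0.19. The 4 satellite cell genes were Itga7, Des, Cdh15 and Sdc4, with C means of 7.45, 10.77, 6.26 and 9.59. Whether their signal came from satellite cells or from muscle fibres was not tested. Endothelial genes had a median of 0.09 and smooth muscle and pericyte genes 0.12, and without Wt 2 these were 0.06 and -0.01. The part of these cell types in the differences of other genes was not tested.

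The remaining marker lists had medians of 0.06 or less; for the 3 tested lymphocyte and neutrophil genes it was 0.04. Of 11 liver plasma protein genes 9 had a negative difference, with a median of -0.25. Without Wt 2 the median was -0.49 with 0 positive, and in SKM-Tg minus SKM-KO it had the other sign, at 0.33. Alb, which encodes albumin, read 7.22, 8.67 and 5.37 in C and 7.0, 4.87 and 4.76 in Wt, so it varied as much within groups. Of 14 fibroblast and matrix genes 8 had a positive difference, with a median of 0.06. Without Wt 2 the median was -0.11 and 2 of the 14 were positive. The 2 members named next went against the majority of the list with all Wt arrays, but with its majority without Wt 2. All Wt arrays lay below C in 4 of the 14 genes and above C in 0, against 8.51% and 15.4% of all genes. In SKM-Tg minus SKM-KO the list median was -0.37. Within that list Postn, a matrix protein, read 5.70, 6.12 and 5.75 in C and 5.07, 4.88 and 5.06 in Wt, and Lum, a collagen-binding proteoglycan, differed by -0.87. The 3 tested Y-linked genes were all lower in signal in Wt, although all mice were males. Eif2s3y, a translation factor, read 8.64, 8.77 and 8.76 in C and 7.12, 5.81 and 8.47 in Wt. The difference was -1.59 (SE 0.47, limma adjusted p 0.145). In the manipulated mice Eif2s3y read 8.65, 8.97 and 8.73 in SKM-KO and 7.71, 7.72, 6.91 and 7.58 in SKM-Tg. The cause of this spread was not tested.

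**Figure D5:**
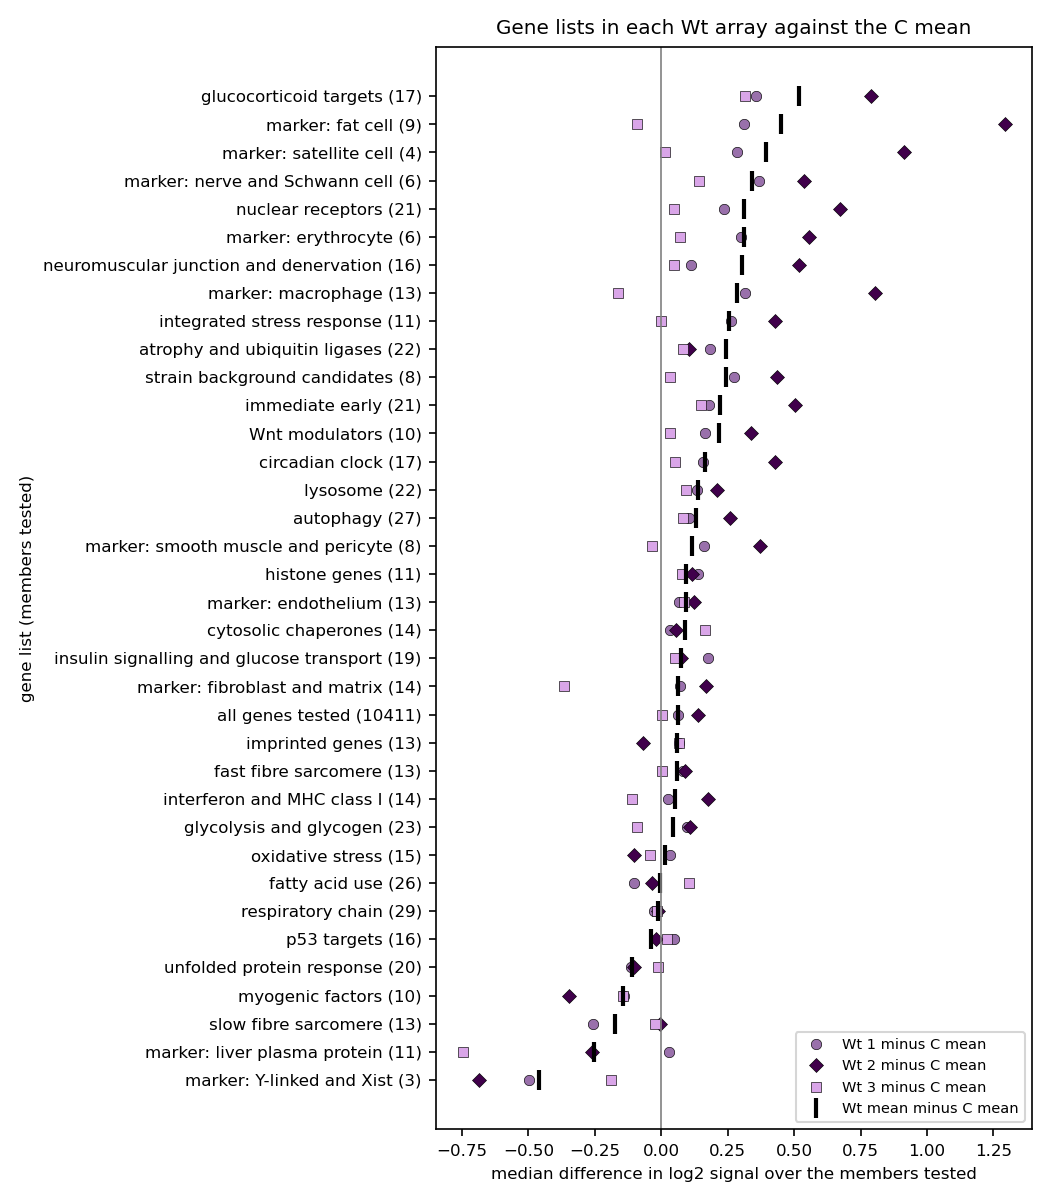
Median difference in log2 signal over the tested members of each gene list, for each Wt array against the C mean (symbols) and for the Wt mean against the C mean (vertical bars); the number of members is in parentheses. Glucocorticoid targets have the highest median at 0.52 with all 3 Wt arrays above 0, while fat cell and macrophage markers are highest in Wt 2 and below 0 in Wt 3.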

How the data were processed

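The deposited values are log2 signals that the authors made with RMA (background correction, normalization between arrays and 1 summary per probe set), per the submitters' processing notes; its version is not given in the sources used here. Of 45141 probe sets, 104 controls were set aside and 28898 had 1 gene symbol in GEO's platform annotation; 551 had several and 15588 none here. Each gene was represented by the probe set that was brightest on average over the 13 arrays, and 10411 of 17097 genes with a mean of at least 4.90, the median of all probe sets, were tested.

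limma 3.58.1 (R 4.3.3) fitted 1 mean per group over all 13 arrays, with 9 residual and 3.62 prior degrees of freedom, after it had been tested on simulated data. Tests were two-sided. The pooled spread is smaller than that within Wt, so the fit on the Wt and C arrays alone is given beside it. The labels name a separate animal for each array, no depth exists for arrays, and no scan date or batch is given, so their number limits the precision.

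Of 674 symbols in 37 lists, 587 had a gene here, 5 after an update of the symbol. Named were Trp53inp2 and Trp53inp1, the genes past the threshold filled up to 12 per direction by p, the strain background list, up to 4 members of each other list by p, and the 5 genes per direction with the smallest p in the average over both pairs; genes called in SKM-Tg minus SKM-KO, Ciart, Txnip and Arrdc4 were added after their values were seen. Members and lists were chosen with earlier results of these data known. Alternatives covered the normalization, the filter, the probe sets, the fit, array weights and each replicate.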

Additional observations from a re-analysis of the deposited data

Results flagged for a closer look

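Among 39 genes screened, 2 had 1 array far from the rest of its group of 4, where chance alone flags about 1 group in 20. Riox1 read 7.55 in SKM-Tg 3 against 7.03 to 7.10 in the other SKM-Tg arrays. Dach2 read 5.11 in SKM-Tg 1 against 4.52 to 4.59 in the others.

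The difference between Wt and C departed from that between SKM-Tg and SKM-KO in 2 genes by the interaction test in limma. For Trp53inp2 the first less the second was -2.29 (adjusted p 2.16e-04), from 0.09 and 2.38, which follows from its ablation in SKM-KO. For H3c11 it was -0.91 (adjusted p 0.0401), from 0.09 and 1.0.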

How the results depend on the processing

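No paired analysis was possible because the labels give no replicate numbers, only animal numbers that no group shares. Wt minus C, with 1 gene called, gave 0 under quantile normalization, cyclic loess, no filter, array weights and the fit on both groups alone, where limma put 490 to 3484 genes at an unadjusted p under 0.05; 2 with probe sets averaged per gene and 4 over all probe sets. Without Wt 2, both chosen after seeing the data, it gave 2 over all probe sets and 0 on both groups alone (1015 at an unadjusted p under 0.05). Leaving out single arrays gave 0 to 4119. SKM-Tg minus SKM-KO, with 18, gave 2767 with array weights, 553 on both groups alone and 2 to 13 without single arrays. The average over both pairs, with 1756, gave 3158 over all probe sets, 132 with array weights and 15 to 4756 without single arrays.

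Of 375 checks of the 24 genes, 342 stayed on their side of the threshold, 23 passed it and 10, all of Rab4a, no longer did. The 23 were 1 pass for each gene other than Rab4a. The setting without Wt 3, with 4119 calls, was the only one with more than 4 calls in Wt minus C. Of 2661 checks of all 170 named genes, 18 changed sign, none of them called: Cd8a was -0.00507 with loess, -0.00354 with weights and -0.0715 to 0.0919 without single arrays, Ide -0.00783, -0.0517 and -0.0441 to 0.0987. With weights S100a9 was -0.00723, Sdc4 -0.0113 and Cyfip2 -0.0601, and Sdha was 0.00558 with probe sets averaged. Without single arrays S100a9 ran from -0.0673 to 0.122, Sdc4 from -0.163 to 0.324, Cyfip2 from -0.188 to 0.461, Arrdc4 from -0.00674 to 0.226 and Trp53inp2 from -0.0317 to 0.200. The cause of these shifts was not tested. List medians moved by more than the spread between replicates in 14 of 591 checks; the clock median, 0.16, was 0.02 without Wt 2 and 0.31 without Wt 3.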

Other observations

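Several further groups held genes whose Wt and C arrays did not overlap, none of them called. Wt lay above C in 2 of 11 histone, 1 of 13 imprinted, 4 of 10 Wnt modulator and 1 of 10 myogenic genes, against 15.4% of all genes. Wt lay below C in 1, 1, 2 and 3 of them in that order, against 8.51%. With so few genes per list, the members named here are examples only. Among histone genes, H1f4, a linker histone, read 8.04, 7.76 and 8.04 in C and 9.31, 9.97 and 8.24 in Wt, and H2ax, the variant phosphorylated at DNA breaks, differed by 0.72, within a list of 11 genes with a median of 0.09. Among imprinted genes Meg3, a maternally expressed long RNA, read 7.72, 7.33 and 7.40 in C and 6.68, 7.01 and 7.11 in Wt (difference -0.55), within a list of 13 genes with a median of 0.06. Among Wnt modulators Dkk3, a secreted relative of Wnt inhibitors, read 6.04, 5.16 and 5.85 in C and 6.42, 6.68 and 6.53 in Wt (difference 0.86), while its difference in SKM-Tg minus SKM-KO was -0.77. Among myogenic factors Mef2c, a transcription factor of muscle structure genes, read 10.14, 10.27 and 10.11 in C and 9.42, 8.62 and 9.71 in Wt (difference -0.93). Eya1 differed by -0.61 without overlap, and Myod1 by 0.60 with overlap.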
